A study of Bos taurus with 2 samples.

Results

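In the LD of tender and tough Angus steers, 1429 of the 9597 genomic regions that carried an H3K4me3 island in both libraries had another such region within 5000 bp. They were chosen by position from the measured islands themselves. On chromosomes 1 to 29, tender and tough islands that overlapped by at least 1 bp were merged, merged regions with islands of both libraries were kept, and a kept region was taken as a member where the gap from its end to the start of the next kept region, or the same on its other side, was at most 5000 bp. The members made up 14.9% of the kept regions (95% Wilson interval 14.2 to 15.6%) and held 1510 tender and 1461 tough islands. The other 8168 kept regions had no such neighbour. The overlap of the libraries and the spacing are therefore properties of the rule, and values that follow from them are descriptions without a test.

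H3K4me3, the trimethylated form of lysine 4 on histone H3, is placed by the SET1 and MLL families of methyltransferases and is found at the promoters of active genes. It tends to spread over the first nucleosomes of a gene, and wide stretches of the mark are known from genes that define a cell type. Promoters can lie close together, as in gene clusters and at divergent gene pairs.

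Both groups came from the longissimus dorsi (LD), the loin muscle, of purebred Angus (Aberdeen Angus) steers about 12 months old, selected from 19 animals by Warner-Bratzler shear force (WBSF), the force needed to shear a core of cooked meat. Chromatin of the 4 steers with the lowest WBSF (6.77 ± 0.56 kg) was pooled in equal parts as tender, and that of the 5 with the highest (19.93 ± 0.39 kg) as tough. Each pool was cut with micrococcal nuclease to single nucleosomes, immunoprecipitated with 1 H3K4me3 antibody and sequenced as 1 library, and the methods name no control library. With 1 pooled library per group the spread between steers cannot be computed, no difference has a replicate check, and a whole muscle holds fibres, fat, vessels and connective tissue whose shares cannot be told apart from a change within a cell type.

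For each library the deposited list gave islands called by SICER, a program that joins enriched windows of 200 bp over gaps of up to 400 bp, each with its position and score. The score adds up, over the enriched windows of an island, how improbable the reads in each window are under a Poisson background, as a negative natural log. It grows with length and with the density of the mark, and the same reads score lower in a deeper library. The lists held 12607 tender and 11277 tough islands on chromosomes 1 to 29. Scores gave a mean of 0.157 reads per window for tender and 0.182 for tough, so the tough library was 1.17 times as deep if both were scored with the same genome size. They also gave the whole number of reads in 97.2% of the tender and 98.6% of the tough islands. These were the islands with a score up to 220, and 1 short island per library above it. That island was counted by trying all numbers of reads per window. Positions are printed as in the lists, counted from 1. Their genome build is not given in the sources used here, and they should not be taken as bosTau4 positions. No genome or annotation of that build was used, so genes, promoters, orientation of neighbouring genes and sequences at the members were not analysed here.

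The members formed 665 clusters, in which each region followed the last by at most 5000 bp. Pairs were the usual form, with 587 clusters and 1174 members, or 82.2% of all members. A further 69 clusters held 3 members each, and 9 clusters held 4 to 7. The 78 clusters of 3 or more together held 255 members. The median cluster spanned 9200 bp (quartiles 7200 and 12200 bp, range 3000 to 58200 bp), and its members covered a median of 75% of the span. Members held 5114800 of the 29890000 bp in kept regions, or 17.1%.

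Most gaps between consecutive kept regions were long, with a median of 67700 bp and 57.7% of the 9568 gaps over 50 kb. The 764 gaps of 5000 bp or less (7.98%) had a median of 2000 bp (quartiles 1000 and 3400 bp). Because islands start and end on window borders, gaps come in steps of 200 bp. From 600 to 1000 bp there were 60 gaps per step, and 95 gaps were exactly 600 bp. From 1200 to 2000 bp there were 33.4 per step, from 2200 to 3000 bp 30.8, from 3200 to 4000 bp 23, and from 4200 to 5000 bp 22.2. Just beyond the limit the number was much the same, with 23.2 per step from 5200 to 6000 bp and 22.1 over all gaps from 5200 to 10000 bp, and it was 13.6 from there to 50000 bp. Within the limit, the higher numbers per step lay mostly below 3000 bp, and 5000 bp is not a border in the spacing itself. Within a library SICER joins windows across 400 bp, so 600 bp is the smallest gap that a list can hold. The 37 gaps below 600 bp arose where an island of one library ended inside the gap of the other.

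**Figure D1:**
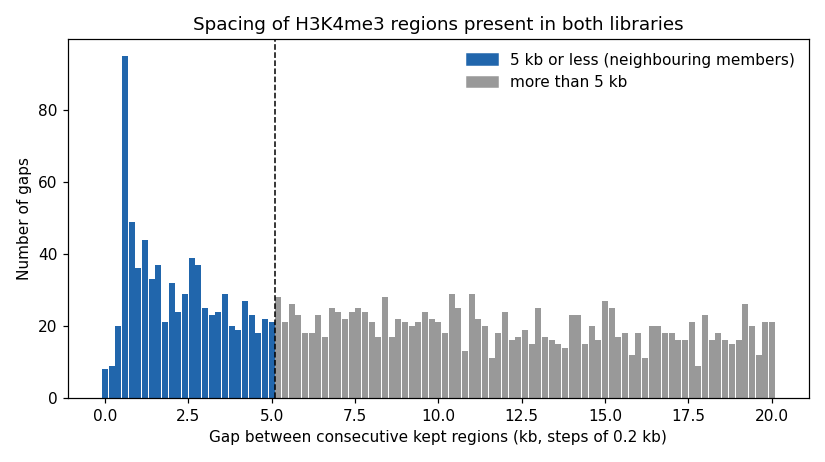
The bars count the gaps between consecutive kept regions in steps of 0.2 kb up to 20 kb, with gaps of 5 kb or less (764 gaps between neighbouring members) in blue, longer gaps in grey and the dashed line at the limit. The tallest bar holds the 95 gaps of 600 bp, and the bars from 4.2 kb on stay near the level of those just beyond 5 kb.

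At the limit itself, 21 pairs of regions lay exactly 5000 bp apart and 28 pairs lay 5200 bp apart. The first pair inside, in genome order, was on chromosome 1 from 64835001 to 64836000 and from 64841001 to 64843000, with scores of 116.8 and 126.3 in tender and 58.4 and 54.4 in tough. The next inside was on chromosome 1 from 150047201 to 150048600 and from 150053601 to 150055000, with 161.1 and 57.9 in tender and 91.8 and 40.6 in tough. The first pair outside was on chromosome 2 from 39999001 to 40000800 and from 40006001 to 40010400, with 73.6 and 185.9 in tender and 68.4 and 162.5 in tough. The next outside was on chromosome 2 from 127523601 to 127526200 and from 127531401 to 127535000, with 44.3 and 41.3 in tender and 45.2 and 45.3 in tough. The scores on both sides of the limit overlapped.

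By their medians, members were longer than the other kept regions and had a lower score per window of 200 bp. Their median length was 3000 bp (quartiles 2200 and 4400 bp), beside 2800 bp (2000 and 3600 bp) for the others. The difference was larger in the long tail, where 265 members (18.5%, 95% Wilson interval 16.6 to 20.6%) and 758 others (9.28%, 8.67 to 9.93%) reached at least 5000 bp. These intervals cover counting error only and treat regions as independent. The median tender score was 74.6 in members and 78.2 in the others, and the median tough score was 64.4 and 66.7. Above the median the order was the other way, with upper quartiles of 125.0 and 118.1 in tender and 103.2 and 100.2 in tough, and means of 97.0 and 92.3 in tender and 84.6 and 78.9 in tough. Divided by the number of windows, the tender score was 7.00 in members (quartiles 4.75 and 10.4) and 7.80 in the others (5.14 and 11.4). In tough it was 5.15 (3.53 and 7.40) and 5.67 (3.81 and 8.36). For the score per window both libraries had the same order, although the quartiles of members and others overlapped widely. The part of length in the score per window was not tested. Where reads could be counted, members held a median of 25 tender and 26 tough reads, and the others 27 and 26. Above the score limit for counting were 5.46% of members and 3.38% of the others in tender, and 3.22% and 1.38% in tough. These medians therefore leave out a larger share of members, the strong ones, than of the others.

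Length and score per window also varied with the distance to the neighbour. The 420 members with a neighbour within 1000 bp had a median length of 3400 bp, 25.2% of them (21.3 to 29.6%) reached 5000 bp, and their median score per window was 6.42 in tender and 4.82 in tough. The 200 members whose nearest neighbour lay 4200 to 5000 bp away had a median of 3000 bp, 14% (9.87 to 19.5%) reached 5000 bp, and the score per window was 7.51 and 5.70. Regions just outside the limit, 885 with a neighbour at 5200 to 10000 bp, gave 3000 bp, 13.7% (11.6 to 16.1%), 7.55 and 5.45. The members near the limit were thus close to the regions beyond it, and the 7283 regions with no neighbour within 10000 bp had a median of 2600 bp, with 8.75% (8.12 to 9.42%) at 5000 bp or more. Members in clusters of 3 or more were longer than those in pairs, with medians of 3600 and 3000 bp and 25.1% and 17.1% at 5000 bp or more. Their score per window was lower in both libraries, with 6.41 beside 7.20 in tender and 4.60 beside 5.31 in tough.

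**Figure D2:**
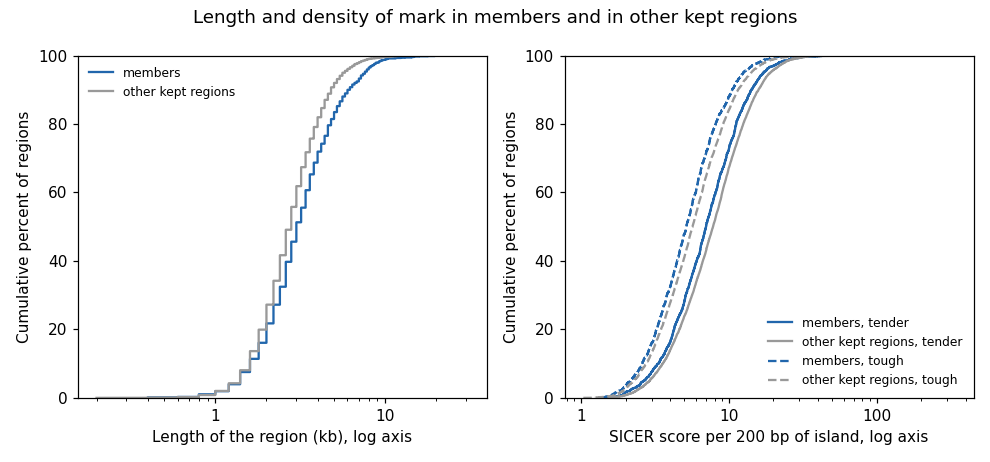
Each curve gives the cumulative percent of regions, for members in blue and the other kept regions in grey, against length in kb on a log axis (left) and against score per 200 bp of island on a log axis (right, solid for tender and dashed for tough). Members lie to the right of the others in length (medians of 3000 and 2800 bp) and to their left in score per window (7.00 and 7.80 in tender, 5.15 and 5.67 in tough).

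A member was more often in pieces than another kept region. At least 2 islands of the same library lay in 99 members (6.93%, 5.72 to 8.36%) and in 246 others (3.01%, 2.66 to 3.41%). The tender islands were the ones in pieces in 76 members (5.32%) and the tough islands in 32 (2.24%), while in the others the shares were 2.23% and 0.906%. In clusters of 3 or more the share of members in pieces was 11.8% (8.37 to 16.3%). Longer regions have more room for a break, and the part of length in these shares was not tested.

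The largest cluster lay on chromosome 5 from 26157201 to 26215400. Its 7 members covered 89.7% of 58200 bp, with gaps of 800 to 1600 bp, and summed to a score of 1320.6 in tender and 1184.3 in tough. The widest member, from 26183401 to 26201200, was a single tough island of 17800 bp (score 366.0) and a pair of tender islands (401.4). The first member, from 26157201 to 26168600, held 3 tender islands (summed score 261.8) under 1 tough island (232.5). The densest, from 26169601 to 26175200, scored 321.4 in tender and 250.8 in tough, and the member from 26202001 to 26211400 scored 230.4 and 205.5. The remaining members were weak in both libraries. The one from 26176001 to 26179000 held 17 tender and 18 tough reads, the one from 26180601 to 26182400 held 14 and 24, and the last, from 26212201 to 26215400, held 12 and 14. The same 4 members were the strong ones in tender and in tough.

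A cluster of the same size but a looser build lay on chromosome 22 from 50557401 to 50613400. Its 7 members covered 60% of 56000 bp, with gaps of 2400 to 5000 bp, and held 306 tender and 264 tough reads. The member with most tender reads, from 50591601 to 50594600, had 58 tender and 45 tough reads. The member with fewest, from 50585201 to 50589200, had 15 and 26, where the tough island covered 4000 bp and the tender island 1400 bp. Scaled to equal totals of reads in kept regions, its tough to tender ratio was 1.79 with a 95% exact interval of 0.916 to 3.64, which includes 1.

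On chromosome 23, from 27325201 to 27355800, 6 members covered 65.4% of 30600 bp. The member from 27330401 to 27335000 stood out with a tender score of 396.9 and a tough score of 180.6 (67 tough reads, with the tender reads above the limit for counting). The other 5 members scored from 32.2 to 132.5 in tender and from 44.5 to 114.2 in tough. The member from 27344401 to 27346800 held 33 tender and 18 tough reads (ratio 1.77, 0.969 to 3.34), and that from 27348401 to 27351400 held 14 and 25 (0.541, 0.260 to 1.08). Adjacent members of this cluster thus leaned to different libraries, each within its counting interval.

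The remaining clusters named by size had lower summed scores, 342.7 in tender and 335.9 in tough on chromosome 7 and 590.7 and 455.7 on chromosome 18. Single members were not all weaker. The highest scores on chromosome 18, 207.3 in tender and 139.1 in tough, were above the 168.4 and 122.8 on chromosome 22. On chromosome 7, from 13655801 to 13688600, 6 members held 139 tender and 150 tough reads over 32800 bp. Each had 9 to 36 tender and 14 to 46 tough reads, and the interval of the ratio included 1 in all 6. On chromosome 18, from 62338401 to 62366000, 5 members held 211 tender and 173 tough reads over 27600 bp. The strongest, from 62358001 to 62363600, had 69 tender and 52 tough reads, and its neighbour at 600 bp, from 62364201 to 62366000, had 18 and 25.

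**Figure D3:**
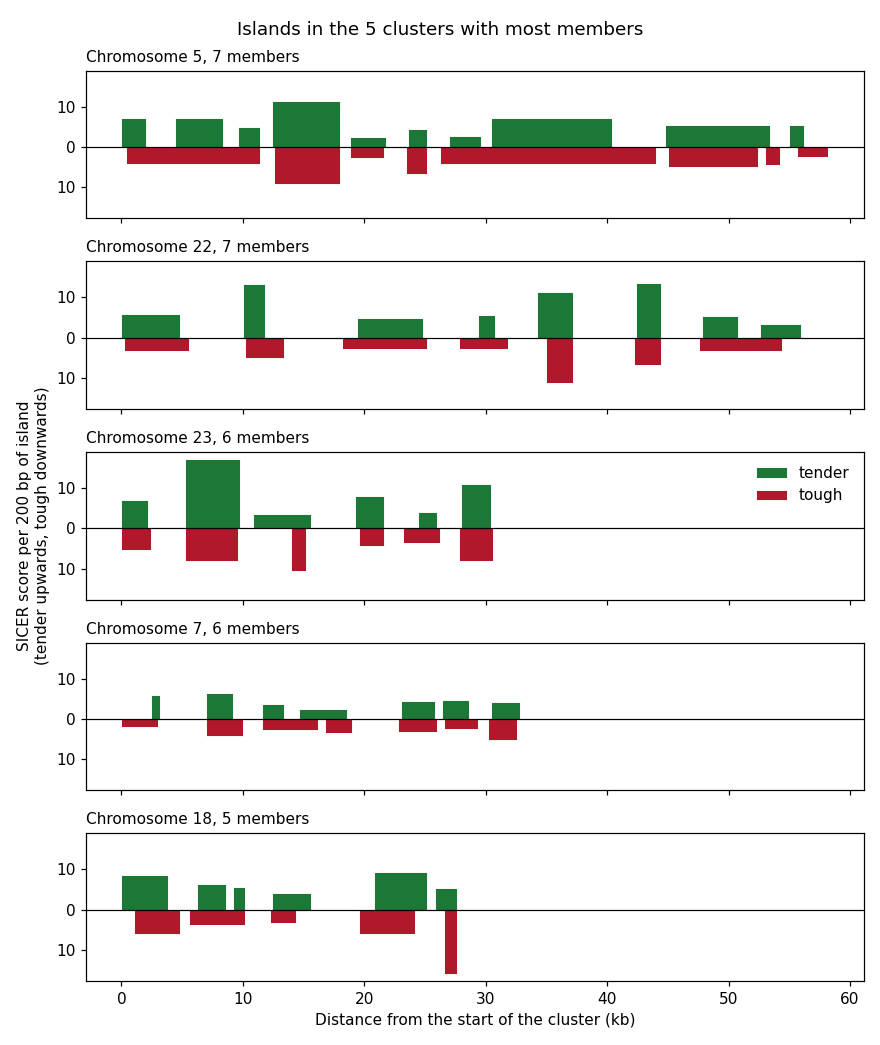
Each panel maps 1 of the 5 clusters with most members, with distance from the start of the cluster in kb on the x axis and boxes for islands, whose height is the SICER score per 200 bp of island (tender upwards in green, tough downwards in red). On chromosome 5 the islands nearly touch, with gaps of 800 to 1600 bp between members, while on chromosome 22 members are separated by 2400 to 5000 bp.

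The 5 members with the highest score in each library were picked for that score, so a weaker neighbour follows from the choice and their neighbours are given as a description. The member with the highest score in both libraries lay on chromosome 4 from 69317001 to 69347800, with 982.5 in tender and 787.3 in tough over 30800 bp. Its neighbour, 600 bp further from 69348401 to 69350600, scored 79.1 and 32.2, lower by a factor of 12.4 in tender and 24.4 in tough. On chromosome 23, the member from 7233601 to 7242800 scored 665.9 in tender and 505.8 in tough, with a neighbour at 1600 bp of 34.3 and 32.4. On chromosome 28, the member from 29790801 to 29806600 scored 550.4 and 527.8, and its neighbour at 2200 bp scored 54.2 and 101.3. On chromosome 5, the member from 27980601 to 27993600 scored 500.5 and 349.9, and its neighbour at 3600 bp scored 25.4 and 32.6. The member on chromosome 25 from 1505201 to 1524800, made of 4 tender and 2 tough islands, scored 433.8 and 435.7, and its neighbour at 3400 bp scored 43.8 and 35.2. On chromosome 17, the member from 25029801 to 25044600 (466.2 and 454.3) had a neighbour at 1000 bp of 202.7 and 249.3.

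One of the highest tender scores came from a very short member. The region on chromosome 8 from 112084201 to 112084600 was 400 bp long and held 107 reads in tender (95% Poisson interval 87.7 to 129) and 59 in tough (44.9 to 76.1). Its scores were 531.4 and 253.0, and the scaled tender to tough ratio of reads was 1.75 (1.26 to 2.45). The region was picked for its tender score, so a lean to tender can follow from that choice, which the interval does not cover. Its tender score per window of 265.7 was the highest of all members, whose upper quartile was 10.4. The methods name no control library to set it against. The neighbour at 2400 bp scored 67.3 and 91.9. The neighbour thus leaned the other way in score.

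Over all 764 pairs of neighbouring members, the stronger member scored a median of 1.88 times the weaker in tender and 1.78 times in tough. The scores differed at least 4-fold in 113 pairs (14.8%) in tender and 81 (10.6%) in tough. Within 1000 bp of each other these shares were 18.4% and 14.7% of 217 pairs. Consecutive kept regions more than 50 kb apart gave 9.29% and 6.64%, and median ratios of 1.78 and 1.67. The same member was the stronger in both libraries in 604 pairs (79.1%, 95% Wilson interval 76.0 to 81.8%), close to the 77.2% (76.0 to 78.2%) of consecutive regions more than 50 kb apart. Over the 764 pairs the log2 scores of the neighbours had a Pearson's r of -0.01 in tender and 0.00 in tough. Pairs share the library and, in clusters of 3 or more, a member, and a correlation this close to 0 is no finding.

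The closest pairs touched. In 8 pairs the gap was 0 bp, since each library broke at a different place and the merged regions met. On chromosome 29, the regions from 43609401 to 43619600 and from 43619601 to 43626400 were 600 bp apart in each library, with tender scores of 291.2 and 87.2 and tough scores of 261.4 and 61.3. On chromosome 18, the regions from 62385001 to 62390200 and from 62390201 to 62393600 were 600 bp apart in tender and 1800 bp in tough, with 210.3 and 241.3 in tender and 176.2 and 185.4 in tough. On chromosome 22, the regions from 49513401 to 49518000 and from 49518001 to 49523800 held 45 and 49 reads in tender and 34 and 26 in tough. The chromosome 15 pair, from 30036201 to 30040800 and from 30040801 to 30048800, had the widest break in tender of these, 2800 bp, beside 1200 bp in tough. In this last pair the members were unequal, with tender scores of 33.0 and 256.5 and tough scores of 40.6 and 200.0. A pair on chromosome 5, from 57698601 to 57701600 and from 57701601 to 57706000, was also unequal, with 11 and 63 reads in tender and 23 and 58 in tough. The other 3 pairs, on chromosomes 3, 10 and 18, held 17 to 33 tender and 21 to 30 tough reads in each member. Over all 764 pairs the gap was smaller in tough in 457 (59.8%), smaller in tender in 223 (29.2%) and equal in 84 (11%), with median gaps of 2600 bp in tough and 3000 bp in tender. Consecutive regions more than 50 kb apart gave 58.7% with the smaller gap in tough, a share close to that of the close pairs.

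Tough islands covered more bases than tender islands in 876 members (61.3%, 58.7 to 63.8%), fewer in 423 (29.6%) and as many in 130 (9.10%). In the other kept regions the tough islands covered more in 59.8% (58.8 to 60.9%). They covered at least 2 times the bases in 215 members (15%, 13.3 to 17.0%), where the share over all kept regions was 12.9%, and in 12.6% (11.9 to 13.3%) of the others. Tender islands covered at least 2 times the bases in 48 members (3.36%, 2.54 to 4.43%), beside 3.14% of all kept regions. The mean reads per window were higher in tough (0.182 beside 0.157), while the counted kept regions held fewer tough than tender reads, and the part of depth in these widths was not tested. Scores went the other way, with a median log2 ratio of tender to tough of 0.15 in members and 0.20 in the others. Scores are not scaled to depth, and the same reads score lower where the mean reads per window is higher, as in tough. The part of depth in this ratio was not tested.

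Reads could be counted in both libraries in 1339 members (93.7%). The 90 members without a count (6.30%) had islands above the score limit, in tender only in 44, in tough only in 12 and in both in 34. Strong members are thus under-represented, and more of them were above the limit in tender. Among the other kept regions 306 (3.75%) had no count, in tender only in 193, in tough only in 30 and in both in 83. The loss was thus larger in members, while more losses in tender were seen in both. Reads were counted within each library's own islands and scaled by 1.04, the ratio of the 271377 tender to the 262161 tough reads in the kept regions counted. A 2-fold or larger excess in tender was seen in 23 members (1.72%, 1.15 to 2.56%), beside 1.8% of all kept regions. An excess in tough was seen in 33 members (2.46%, 1.76 to 3.44%), beside 2.37% of all kept regions. Both shares were near those of all kept regions. The median log2 ratio was -0.05 in members and 0.00 in the others. With the libraries scaled by their mean reads per window instead, which shifts the median of all kept regions to 0.26, the split turned to 77 members higher in tender (5.75%, beside 5.99% of all kept regions) and 9 higher in tough (0.672%, beside 0.728%). The direction of the split thus rests on the scaling, and members were near all kept regions under both. Between the libraries the log2 scores of the 1429 members gave a Pearson's r of 0.815 and the scores a Spearman's rho of 0.784, beside 0.771 and 0.762 in the others, over regions that all come from the same 2 libraries.

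**Figure D4:**
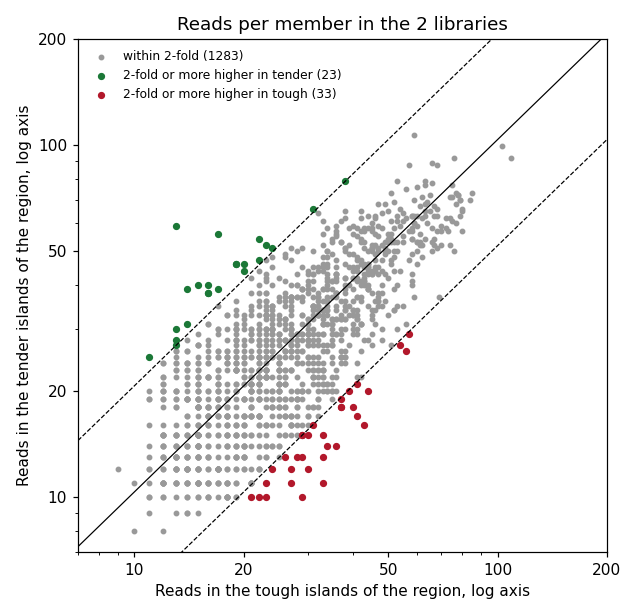
Each point is 1 of the 1339 members counted in both libraries, with tough reads on the x axis and tender reads on the y axis, both log axes. The solid line marks equal reads after scaling and the dashed lines a 2-fold difference, with 23 members beyond it towards tender (green) and 33 towards tough (red), all others within.

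Among the 931 members with at least 40 reads in both libraries together, those with the most extreme ratios were picked for their size, and their 95% exact intervals cover counting error only and not that choice. The furthest towards tender was on chromosome 7 from 4094801 to 4104200, with 59 tender and 13 tough reads and a scaled ratio of 4.38 (2.38 to 8.71). Its tender island covered 9400 bp and its tough island 2000 bp, so the tender mark reached where no tough island was called. On chromosome 14, the member from 3584401 to 3588800 had 56 tender and 17 tough reads (3.18, 1.82 to 5.84), with 4400 bp and 1800 bp covered. Next came members on chromosome 3 from 120329201 to 120331000 with 39 and 14 reads (2.69, 1.43 to 5.37), and on chromosome 14 from 1626201 to 1629800 with 40 and 15 (2.58, 1.39 to 5.02). On chromosome 18, the member from 55479001 to 55480400 had 40 and 16 (2.42, 1.32 to 4.62).

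Towards tough, the furthest was on chromosome 1 from 81251201 to 81253000, with 33 tough and 11 tender reads and a scaled tough to tender ratio of 3.11 (1.53 to 6.81), although the islands covered 1800 and 1600 bp. On chromosome 24, the member from 58200601 to 58202600 had 43 tough and 16 tender reads (2.78, 1.54 to 5.29) over 2000 bp in each library. In these members the difference was in density and not in width. The neighbour of the chromosome 1 member, at 1600 bp, leaned the other way, with 39 tender and 17 tough reads. The lean of that member thus does not hold for its cluster. Neighbours of the other members named by ratio are not given here. On chromosome 23, the member from 16601201 to 16605400 had 36 and 14 reads (2.66, 1.40 to 5.34), with 4200 bp of tough and 1800 bp of tender island. On chromosome 18, the member from 53509601 to 53516200 had 33 and 13 (2.63, 1.35 to 5.44). On chromosome 7, the member from 13729201 to 13731600 had 30 and 12 (2.59, 1.29 to 5.55).

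The differences of neighbouring members were also set side by side. In the 673 pairs with reads counted in both members, the scaled log2 ratios had a Pearson's r of -0.06 and a Spearman's rho of -0.05, and both members lay on the same side of equal reads in 335 (49.8%). By gap the r changed sign, from 0.12 at up to 1000 bp (181 pairs, 55.2% on the same side) to -0.21 at 1200 to 2400 bp (200 pairs, 50.5%) and -0.09 at 2600 to 5000 bp (292 pairs, 45.9%). These correlations are weak and are descriptions only. In consecutive regions more than 50 kb apart the share on the same side was 49.5%. At a median of 25 tender reads per member, a single region can show only a large difference, and this limits how alike neighbours can appear.

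Islands seen in 1 library alone were also placed relative to the members. The space between members of a cluster is small by the rule, so few islands could lie there. Of 2741 tender islands without a tough overlap, 371 (13.5%) were within 5000 bp of a kept region and 5 lay between members of a cluster. Of 1574 such tough islands, 263 (16.7%) were within 5000 bp and 4 lay between members. A tender-only island lay within 5000 bp of 68 members (4.76%, 3.77 to 5.99%) and of 316 others (3.87%, 3.47 to 4.31%). For tough-only islands the numbers were 43 (3.01%, 2.24 to 4.03%) and 242 (2.96%, 2.62 to 3.35%). The intervals of members and others overlapped for both libraries.

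Members were unevenly spread over the chromosomes. Their share of kept regions was highest on chromosome 25 (98 of 392, or 25%, 95% Wilson interval 21.0 to 29.5%), chromosome 19 (154 of 632, 24.4%), chromosome 23 (71 of 302, 23.5%), chromosome 7 (131 of 609, 21.5%) and chromosomes 5 and 18 (108 of 522 and 127 of 614, 20.7% each). It was lowest on chromosome 9 (10 of 228, 4.39%, 2.40 to 7.88%), chromosome 1 (20 of 384, 5.21%) and chromosome 6 (16 of 234, 6.84%). The 5 chromosomes with most members held 618 of them (43.2%) and 28.9% of the kept regions. Where kept regions are dense, more of them have a neighbour by position alone, and across the 29 chromosomes the share of members rose with kept regions per Mb (Pearson's r 0.787, Spearman's rho 0.778, as a description). Chromosome 14 had 18.0% members (38 of 211, 13.4 to 23.8%) at 2.49 kept regions per Mb, while chromosome 1, at 2.44, had 5.21%.

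**Figure D5:**
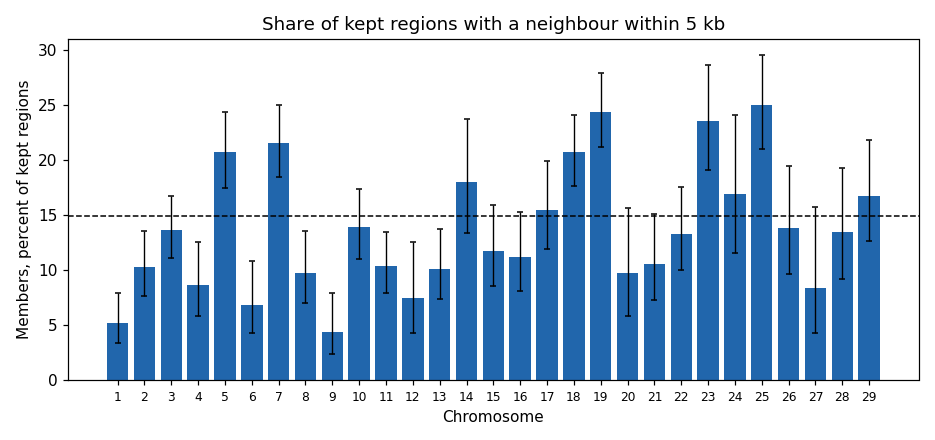
Bars give the percent of kept regions on each chromosome that are members, error bars the 95% Wilson interval for counting error, and the dashed line the 14.9% over chromosomes 1 to 29. Chromosomes 25, 19 and 23 stand highest with 25%, 24.4% and 23.5%, and chromosome 9 lowest with 4.39%.

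The same held within chromosomes. In bins of 1 Mb with more than 15 kept regions, 683 of 2404 (28.4%) were members, while bins with 1 to 5 kept regions had 7.03%. Most members in a bin were on chromosome 19 from 27000001 to 28000000, with 23 of 39 kept regions, followed by chromosome 25 from 26000001 to 27000000 (20 of 40), chromosome 23 from 27000001 to 28000000 (18 of 31), chromosome 18 from 62000001 to 63000000 (17 of 28) and chromosome 7 from 13000001 to 14000000 (16 of 26). The last 3 bins also hold the clusters described above on those chromosomes. Members also stood in denser surroundings beyond their own cluster. Gaps over 5000 bp with a member on either side had a median of 45100 bp (1248 gaps), beside 87800 bp (7556 gaps) where neither side was a member.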

How the data were processed

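H3K4me3 ChIP-Seq of 1 pooled tender and 1 pooled tough library was analysed, with groups taken from the sample titles. By the methods, the authors aligned reads to bosTau4 with Maq, allowing 1 mismatch, removed duplicates and called islands with SICER (version 1.1 in the submitters' processing notes) with windows of 200 bp, gaps of 400 bp and an E-value of 100. The authors deposited the SICER score of each island, not scaled to depth, in a 4-column and a 5-column list per library. The 4-column lists were used. They reach 148.8 Mb on chromosome X and the 5-column lists 87.9 Mb, so they differ in build, and that of the 4-column lists is not given in the sources used here.

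Islands were merged and linked as described. Whole reads were recovered from the scores where exactly 1 number of reads matched within 1.5e-09. The steps were tested on simulated data. For the recovery of reads, the simulated islands were shorter and lower in score than the largest counted here, and the mean reads per window was known. No test between groups was made. Intervals are 95% Wilson for shares, Poisson for reads and exact binomial for ratios, and cover counting error only, since reads and regions are not independent. The total depth of the libraries is unknown. Regions named are the 5 clusters with most members, the 5 highest-scoring members per library, the 5 most extreme in scaled reads towards each group among those with at least 40 reads, the pairs with the smallest gap (8 tied) and the first 2 pairs on each side of the limit. Members and lists were chosen with earlier results of these data known. Lists of muscle genes and cell type markers could not be applied without an annotation of the build and were not used here. Python 3.11.15, numpy 2.4.6, pandas 2.3.3, scipy 1.17.1 and matplotlib 3.10.9 were used.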

Additional observations from a re-analysis of the deposited data

Results flagged for a closer look

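Chromosome X lies outside the chromosomes from which members were taken, and its closely spaced regions are given here as islands that no comparison above used. Of 223 kept regions on X, 12 had another within 5000 bp (5.38%, 95% Wilson interval 3.10 to 9.17%), in 6 clusters. Their median length was 2000 bp, and their median scores were 42.1 in tender and 36.6 in tough. The methods name no control library to set them against.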

How the results depend on the processing

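Of 54 values recomputed under alternatives, for 8 results, 39 stayed within their interval or, for counts, within 1.5 times, 15 moved further and 0 reversed. With neighbours within 2500 bp there were 837 members, 400 clusters, a share of 8.72% and a median gap of 1200 bp, and within 10000 bp there were 2314, 998, 24.1% and 4200 bp. Islands of at least 2 times the lowest score of their list left 531 members in 257 clusters, a share of 9.08%, and tough islands covering more bases in 64.4%. Centres within 5000 bp gave 548 members. Tender islands alone gave 2489 of 12607 islands and tough islands alone 2079 of 11277, beside 1429 of 9597 kept regions in the main setting. Scaling by the mean reads per window gave 6.42% of members past a 2-fold difference in reads, beside 4.18%, and 6.72% of all kept regions, beside 4.17%. The numbers of members and clusters therefore depend on the limit and on the weakest islands. The difference in median length stayed between 200 and 400 bp under each alternative run for it. An overlap of 50% of the shorter island (1410 members) and chromosome X included (1441) changed little, as did 2 alternatives chosen after seeing the data, namely the 5-column lists (1363) and a gap of exactly 5000 bp not counted (1392). The alternative on gene starts was not run, because no annotation of the build was used here. No paired analysis was possible because each group is 1 library and no result comes from a test, and for the same reason no replicate could be left out. With a median near 25 reads per member, only large differences in single regions are detectable.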
